A study of Homo sapiens with 12 samples.

Results

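The transcripts of the mitochondrial genome were followed through an RNA sequencing experiment on a synthetic small RNA in 2 prostate cancer (PCa) cell lines. All features whose symbol starts with MT- were taken, which gave 37 of the 60660 features in each table. They are 13 mRNAs, 2 rRNAs and 22 tRNAs, the whole gene content of chrM in hg38 (16569 bases). LNCaP and 22Rv1 are established human PCa lines, and every library came from cells kept without androgen, in 10% CS-FBS (fetal bovine serum from which charcoal has removed steroid hormones). The 4 groups, with 3 libraries each, were LNCaP with NC-mimic (a control RNA), LNCaP with piR-4447944 mimic (a synthetic copy of a PIWI-interacting RNA), 22Rv1 with NC-mimic and 22Rv1 with piR-4447944 mimic. The RNA was introduced by transient transfection, total RNA was extracted and mRNA libraries were made. The labels do not say whether the 3 libraries of a group came from separate cultures, and the study mentions independent repeats only in general terms, so the p-values measure the spread between libraries, part of which may be technical.

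Mitochondrial DNA is transcribed from both strands into long precursor RNAs. Most mRNAs and rRNAs in them are flanked by tRNAs, and excision of the tRNAs releases the RNAs in between. The mRNAs encode core subunits of the respiratory chain and of ATP synthase, the rRNAs build the mitochondrial ribosome and the tRNAs decode the mRNAs. Most human mitochondrial mRNAs carry short poly(A) tails, and the large rRNA carries an oligo(A) tail. MT-ND6 carries little or no poly(A) tail. Whether poly(A) selection was used for these libraries is not given in the sources used here, which limits what the levels of MT-ND6 and the rRNAs can be compared with.

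The arrangement of the genes bears on what could be counted. On the plus strand lie 12 of the mRNAs and both rRNAs, and the mRNA MT-ND6 lies on the minus strand. MT-TM, the tRNA for methionine, is shown because the piRNA of the study's methods matches 33 of its bases apart from 1 base. It lies at chrM:4402-4469 on the plus strand of hg38 and ends at the base before MT-ND2 begins. The capitals mark the matched stretch, chrM:4418-4450, which is bases 17 to 49 of the gene.
MT-TM: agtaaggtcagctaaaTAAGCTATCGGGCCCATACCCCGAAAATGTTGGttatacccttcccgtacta
The MT-ATP8 and MT-ATP6 genes share 46 bases, and those of MT-ND4L and MT-ND4 share 7, so reads there could belong to either member of a pair. Both regions are shown from the plus strand of hg38, chrM:8527-8572 and chrM:10749-10778. The capitals mark the start codon of MT-ATP6 in the first sequence and the 7 shared bases, chrM:10760-10766, in the second.
MT-ATP8 and MT-ATP6: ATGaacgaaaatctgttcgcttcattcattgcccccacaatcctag
MT-ND4L and MT-ND4: aacctactccaATGCTAAaactaatcgtcc

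The libraries held 12161091 to 22179601 expected counts. No library repeated another. All 10 luminal prostate markers were above 1 CPM (counts relative to the library's scaled total) in every library, with summed CPM of 6243 to 6813 in LNCaP and 3281 to 3939 in 22Rv1. The summed basal markers were at or below 0.794, leukocyte markers at or below 4.91, endothelial markers at or below 6.41 (1 of 3 at 0 in every library), and fibroblast markers lay between 12.9 and 82.8 with 1 of 4 above 1 in every library. The part of these markers in the results was not tested. The fragment length implied by the tables (gene length minus effective length plus 1) was 264.1 to 267.5 bases in LNCaP with piR-4447944 mimic and 269.9 to 280.8 bases in LNCaP with NC-mimic. In 22Rv1 it was 270.6 to 278.8 bases with NC-mimic, and 274.8, 276.9 and 256.7 bases with piR-4447944 mimic, where the last is replicate 3. That library stood apart from all others in the mitochondrial mRNAs, and results that it moved by more than 1.5 times are given with and without it.

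None of the 22 tRNAs, 59 to 75 bases long, had a count in any of the 12 libraries, MT-TM included. Their effective length, the number of positions at which a fragment of the library could start, was listed as 0 in all libraries. The tables therefore give no measure of the tRNAs, and an effect of the mimic on MT-TM could not be examined. The remaining 15 genes all had counts in all libraries and all passed the filter on low counts.

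Mitochondrial mRNAs took 3.38% to 4.79% of the expected counts in 11 libraries and 1.60% in the remaining one, 22Rv1 piR-4447944 mimic replicate 3. In LNCaP with NC-mimic the shares were 3.61%, 4.21% and 3.39% (mean 3.74% ± 0.424, SD, n = 3). With piR-4447944 mimic they were 3.74%, 3.38% and 3.47% (3.53% ± 0.185, SD, n = 3), inside the range of the controls except for 1 library just under it. In 22Rv1 the NC-mimic libraries gave 4.79%, 4.72% and 4.07% (4.53% ± 0.398, SD, n = 3), and the piR-4447944 mimic libraries gave 4.09%, 4.31% and 1.60% (3.33% ± 1.51, SD, n = 3). Replicates 1 and 2 lay inside the control range and replicate 3 far below it. The widest 95% exact (Clopper-Pearson) interval of a share of the mitochondrial genes was 0.0236 percentage points, so counting error was small beside the spread between libraries. Such intervals cover counting error only. In bulk RNA, fewer cells with a transcript and less of it per cell cannot be told apart.

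The 2 rRNAs followed another pattern. MT-RNR1 (12S, of the small ribosomal subunit) and MT-RNR2 (16S, of the large subunit) together took 0.969%, 1.12% and 0.854% of the counts in LNCaP with NC-mimic and 1.06%, 0.971% and 0.936% with piR-4447944 mimic. In 22Rv1 they took 0.580%, 0.627% and 0.553% with NC-mimic and 0.654%, 0.586% and 0.633% with piR-4447944 mimic. All 6 22Rv1 libraries were below all 6 LNCaP libraries, and replicate 3 of 22Rv1 with piR-4447944 mimic was not low. Relative to 100 mRNA counts, there were 26.3 ± 0.881 rRNA counts in LNCaP with NC-mimic, 28.0 ± 0.929 with piR-4447944 mimic (SD, n = 3). In 22Rv1 there were 12.1, 13.3 and 13.6 with NC-mimic and 16.0, 13.6 and 39.6 with piR-4447944 mimic, so that the lines did not overlap without the last library.

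**Figure D1:**
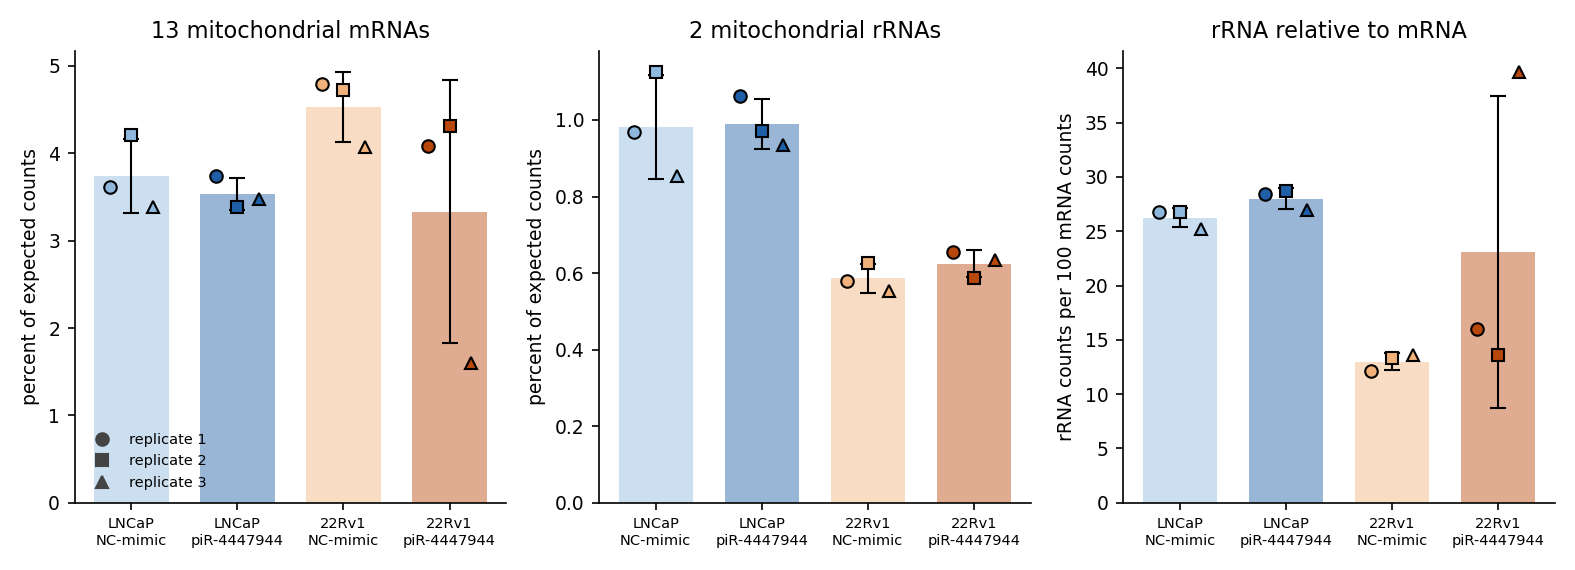
Shares of the 13 mitochondrial mRNAs (left) and of both rRNAs (middle) in percent of each library's expected counts, and rRNA counts per 100 mRNA counts (right). Points are libraries, shaped by replicate number, bars are group means and error bars are SD with n = 3. Replicate 3 of 22Rv1 with piR-4447944 mimic sits at 1.60% in the left panel and at 39.6 in the right panel, while its rRNA share of 0.633% lies among those of its group.

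Within the mRNAs, the complex IV genes led. MT-CO1, the catalytic subunit of cytochrome c oxidase, had the most counts of all genes in 11 of 12 libraries and had rank 3 in 22Rv1 piR-4447944 mimic replicate 3. It made up 32.8% to 34.9% of the mitochondrial mRNA counts in LNCaP and 29.9% to 37.6% in 22Rv1. Per kilobase of gene length, in CPM with library totals scaled by the trimmed mean of M-values (TMM), MT-CO1 was at 8488 ± 1273 in LNCaP with NC-mimic (SD, n = 3). MT-CO3 followed at 6558 ± 759, MT-RNR2 at 5630 ± 911 and MT-CO2, the subunit that receives electrons from cytochrome c, at 4847 ± 625. MT-CO1 did not overlap MT-CO3, but MT-CO3, MT-RNR2 and MT-CO2 overlapped one another in turn. MT-ND4 (3274), MT-ATP6 (2855), MT-CYB (2608) and MT-ND2 (2215) formed an overlapping middle range below MT-CO2, of which MT-ND2 did not overlap MT-ND1 (1719). MT-ND1, MT-ND4L (1402), MT-RNR1 (1330) and MT-ND5 (1200) overlapped in turn, and MT-ND3 (1040), MT-ND6 (569.7) and MT-ATP8 (24.8) each lay below the gene before. These 7 ND genes encode subunits of complex I, MT-CYB the cytochrome b of complex III, and the ATP genes subunits of the proton channel part of ATP synthase.

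The order differed in 22Rv1 with NC-mimic. On the same scale MT-CO1 was at 9468 ± 1497, MT-CO2 at 7606 ± 890 and MT-CO3 at 6317 ± 555 (SD, n = 3), with each pair of neighbours overlapping. MT-RNR2 stood sixth at 3166 ± 273, between MT-ND2 (3220) and MT-CYB (3139), and overlapped both. MT-ND6 (969.9) and MT-RNR1 (969.6) were not distinguishable, and MT-ATP8 was again last, at 23.5.

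The deposited TPM put other genes first. TPM divides counts by the effective length, which is short for genes barely longer than a fragment. MT-ND4L (297 bases) had an effective length of 31.5 to 47.3 bases, MT-ND3 (346 bases) of 70.2 to 91.9 bases and MT-ATP8 (207 bases) of 1.42 to 2.76 bases. By TPM, MT-ND4L was the first gene of the whole table in 9 of 12 libraries, with a mean of 15310 ± 1936 in LNCaP with NC-mimic (SD, n = 3), whereas by counts its rank was 132 to 418. MT-ND4L, MT-ND3 and MT-ATP8 together held 1.98% to 3.10% of the mitochondrial mRNA counts and 26.5% to 36.1% of the mitochondrial mRNA TPM. MT-ATP8 had only 62 to 133 counts in 11 libraries, with 2336 to 4413 TPM. In 22Rv1 piR-4447944 mimic replicate 3 it had 8 counts (95% exact Poisson interval 3.45 to 15.8, counting error only) and 248 TPM. The counts of MT-ATP8 and the neighbouring MT-ATP6 share the overlap printed above, and how reads in it were divided cannot be read from the tables.

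**Figure D2:**
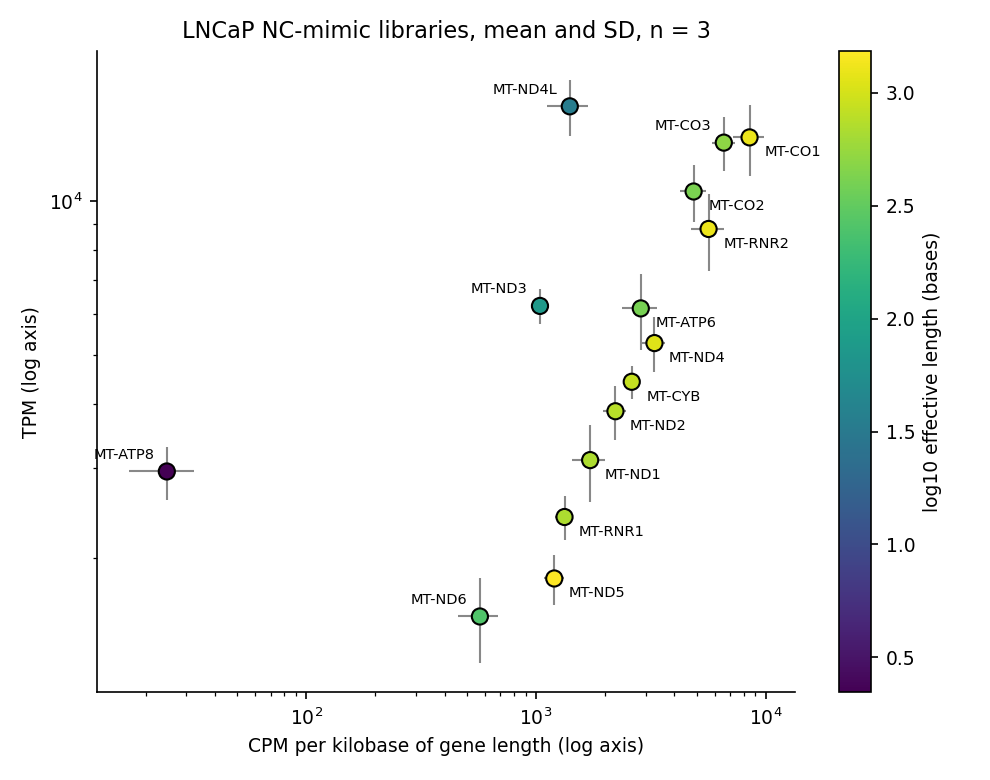
Levels of the 15 mitochondrial genes in LNCaP with NC-mimic, as CPM per kilobase of gene length (horizontal, log axis) against TPM (vertical, log axis), means with SD as lines (n = 3). Colour gives the log10 of the effective length in bases. MT-ATP8, MT-ND4L and MT-ND3, the genes with the shortest effective lengths, lie to the upper left of the line formed by the other 12.

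The first comparison here asked whether mitochondrial transcripts differ between piR-4447944 mimic and NC-mimic in LNCaP. No mitochondrial gene passed the test there. By edgeR's quasi-likelihood test after Benjamini-Hochberg adjustment, 0 of 15 members were called, and so were 0.0% of the 16244 genes tested. At an unadjusted p under 0.05 there were 2 of 15 members, against 2.67% of all genes, and DESeq2 and limma called 0 members. The 13 mRNAs had a median log2 fold change of -0.06, with 10 of 13 below 0, against 0.00 over all genes, of which 51.0% were below 0. The standard errors of the mRNAs were 0.07 to 0.25, and those other than MT-ATP8, MT-ND3 and MT-ND4L lay between -0.16 and -0.03.

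The members with an unadjusted p under 0.05 were both short subunits of complex I. MT-ND3 was at 351, 353 and 376 CPM with NC-mimic and at 445, 388 and 440 CPM with piR-4447944 mimic. The groups did not overlap, which was so in this direction for 3.48% of all genes, and the log2 fold change was 0.25 (SE 0.07, adjusted p = 0.999). MT-ND4L was at 414, 503 and 332 CPM against 549, 471 and 533 CPM, a log2 fold change of 0.33 (SE 0.12, adjusted p = 0.999), and here the groups overlapped. The LNCaP libraries also differed in implied fragment length, as given above, and with it in the effective length of these genes, which was 31.9 to 38.6 bases for MT-ND4L with NC-mimic and 39.3 to 41.9 bases with piR-4447944 mimic. With the effective length as an offset, an alternative chosen after seeing the data, the log2 fold changes were 0.08 for MT-ND3 and 0.10 for MT-ND4L. Implied fragment length did not overlap between the LNCaP groups, so it cannot be told apart from the mimic here. The part of fragment length in these values was not tested. MT-CO1, at 12692, 15219 and 11353 CPM against 12285, 11550 and 11543 CPM, and MT-RNR2, at 8647, 10258 and 7425 CPM against 9168, 8513 and 8241 CPM, showed overlapping groups, with log2 fold changes of -0.14 (SE 0.08) and -0.01 (SE 0.09).

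The same question in 22Rv1 gave lower mean levels of all 13 mRNAs with the piR-4447944 mimic, carried in large part by 1 library, and no call. By edgeR's quasi-likelihood test after Benjamini-Hochberg adjustment, 0 of 15 members and 0.0% of the 16898 genes tested were called, and DESeq2 and limma called 0 members. At an unadjusted p under 0.05 there were 2 of 15 members, against 1.48% of all genes. The median log2 fold change of the mRNAs was -0.51 (range -0.70 to -0.18), against -0.01 over all genes, of which 50.7% were below 0. Without replicate 3 of the mimic group the median was -0.16, with 12 of 13 below 0, and without replicate 3 in every group it was -0.23. In 4 of 13 mRNAs the groups did not overlap, all lower with the mimic, against 4.81% of all genes in this direction. These were MT-ATP6, MT-ND3, MT-ND4L and MT-ND4.

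MT-ATP6, the proton channel subunit of ATP synthase, was at 1931, 1825 and 2027 CPM with NC-mimic and at 1600, 1619 and 336 CPM with piR-4447944 mimic. The mimic libraries were all below the controls, and the log2 fold change was -0.70 (SE 0.51, adjusted p = 0.999), or -0.26 without mimic replicate 3. MT-ND4 was at 5486, 5701 and 6073 CPM against 4495, 4872 and 2886 CPM, a log2 fold change of -0.49 (SE 0.20, unadjusted p = 0.0391, adjusted p = 0.999 in edgeR). MT-ND4L, which shares an mRNA with MT-ND4, was at 633, 543 and 607 CPM against 460, 515 and 324 CPM, a log2 fold change of -0.45 (SE 0.18, unadjusted p = 0.0415, adjusted p = 0.999 in edgeR). In these genes replicates 1 and 2 of the mimic group lay below the lowest control, and replicate 3 further below. MT-ND3 was at 491, 455 and 482 CPM against 379, 424 and 151 CPM, the same pattern, with a log2 fold change of -0.58 (SE 0.34). Without mimic replicate 3 the log2 fold changes were -0.30 for MT-ND4, -0.29 for MT-ND4L and -0.25 for MT-ND3, each with an adjusted p = 0.979 in edgeR.

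The other mRNAs overlapped between the groups. MT-CO1 was at 16216, 15627 and 11957 CPM with NC-mimic and at 13520, 14738 and 5768 CPM with piR-4447944 mimic, so that only replicate 3 left the control range. MT-CO3 was at 5302, 5090 and 4465 CPM against 4594, 4863 and 800 CPM, again with only replicate 3 below the controls. The log2 fold changes were -0.36 (SE 0.33) for MT-CO1 and -0.53 (SE 0.56) for MT-CO3, and without that library they were -0.05 and -0.07. Without it, the other mRNAs with overlapping groups lay between -0.21 (MT-ND2) and -0.03 (MT-ND5), apart from MT-ATP8 at 0.15. The standard errors reached 0.73, in MT-ATP8. The rRNAs differed from the mRNAs and from each other. MT-RNR1 was at 837, 1003 and 934 CPM with NC-mimic and at 1175, 934 and 1711 CPM with piR-4447944 mimic. The groups overlapped, at a log2 fold change of 0.47 (SE 0.23, unadjusted p = 0.0790 and adjusted p = 0.999 in edgeR), or 0.19 without mimic replicate 3. MT-RNR2 was at 4978, 5338 and 4490 CPM against 5221, 4866 and 4371 CPM, a log2 fold change of -0.03 (SE 0.12), and 0.03 without that library.

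The genes of the 22Rv1 piR-4447944 mimic replicate 3 library were not lowered evenly. As log2 ratios to the mean of the 22Rv1 NC-mimic libraries, a description with no test, its 13 mRNAs lay between -3.29 and -0.39 with a median of -1.87. MT-ATP8 (-3.29), MT-CO3 (-2.63) and MT-ATP6 (-2.52), which are neighbours on the genome, were lowest. MT-CO2, MT-ND2 (-1.97), MT-ND1 (-1.89) and MT-CYB (-1.87) came next. MT-ND3, MT-CO1 and MT-ND5 lay between -1.66 and -1.28. MT-ND4 (-0.99), MT-ND4L (-0.88) and MT-ND6 (-0.39), the last from the minus strand, were closest to the controls among the mRNAs. MT-RNR2 was at -0.17 and MT-RNR1 was above the controls, at 0.89. The 5 neighbouring genes MT-ND3, MT-ND4L, MT-ND4, MT-ND5 and MT-ND6 thus spanned -1.66 to -0.39. Replicates 1 and 2 had medians of -0.16 and -0.17 on this scale, with 12 and 10 of 13 mRNAs below 0. The 22Rv1 NC-mimic libraries themselves had medians of 0.09, 0.087 and -0.195, with 1, 5 and 8 of 13 below 0. MT-RNR1 counts per 100 MT-RNR2 counts were 22.5, 19.2 and 39.1 in the 3 mimic libraries and 16.8 to 20.8 in the 22Rv1 controls, and MT-ND6 made up 1.15%, 1.16% and 2.53% of the mitochondrial mRNA counts, against 1.10% to 1.17%. The implied fragment length of replicate 3 was also the shortest of all libraries, at 256.7 bases. With the effective length as an offset, chosen after seeing the data, the 22Rv1 mRNAs had a median log2 fold change of -0.53, mimic against control. In the main fit it was -0.51, and all 13 mRNAs were below 0 in both fits. The part of fragment length in the values of this single library was not tested.

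**Figure D3:**
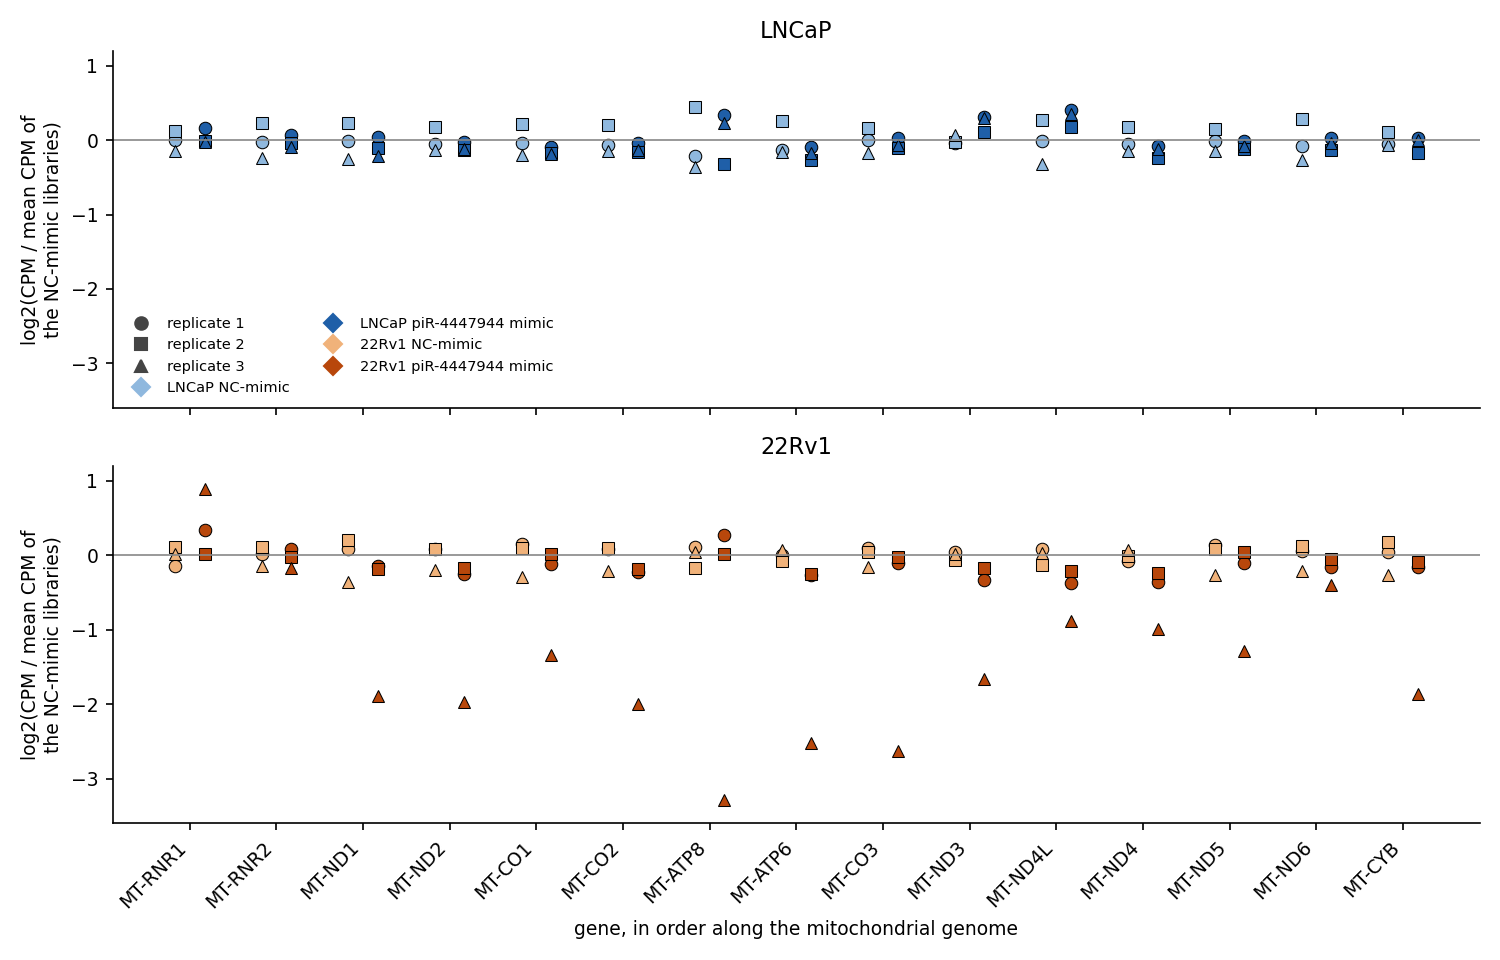
Level of each of the 15 mitochondrial genes in every library as log2 of CPM over the mean CPM of the NC-mimic libraries of the same line, with LNCaP above and 22Rv1 below. Points are single libraries, shaped by replicate number. In 22Rv1, replicate 3 with piR-4447944 mimic (dark triangles) runs from -3.29 in MT-ATP8 (from only 8 counts) to 0.89 in MT-RNR1, and the other libraries lie close to 0.

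Whether the mimic acted differently in the lines was asked with an interaction term over all 12 libraries. These comparisons share their libraries with the previous ones. By edgeR's quasi-likelihood test after Benjamini-Hochberg adjustment, 0 of 15 members and 0.0% of 18720 genes were called, and DESeq2 and limma called 0 members. At an unadjusted p under 0.05 there were 2 of 15 members, against 3.26% of all genes. They were MT-ND4L, with a log2 difference (22Rv1 effect minus LNCaP effect) of -0.78 (SE 0.24, adjusted p = 1.0), and MT-ND3, with -0.83 (SE 0.37, adjusted p = 1.0). Without 22Rv1 piR-4447944 mimic replicate 3 these were -0.63 and -0.51. The median over the mRNAs was -0.50, and -0.10 without that library. The mean effect over both lines gave 0 of 15 calls and 0.0% of 18071 genes in edgeR, and 0 members in DESeq2 and limma. Only MT-ND4 had an unadjusted p under 0.05 (-0.31, SE 0.12, unadjusted p = 0.0196, adjusted p = 1.0 in edgeR), against 1.79% of all genes, and it was at -0.21 without that library. The median over the mRNAs was -0.27, and -0.08 without that library.

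The lines themselves differed in mitochondrial transcripts, as they did in most genes. In the NC-mimic libraries, 9 of 15 members differed between 22Rv1 and LNCaP by edgeR's quasi-likelihood test after Benjamini-Hochberg adjustment, against 58.4% of the 17497 genes tested, so the share of members called was near that of all genes. The direction went by class. In 22Rv1, 7 of 13 mRNAs were higher and 0 lower, against 30.9% of all genes higher, and both rRNAs were lower, against 27.5% of all genes lower. The median of the mRNAs was 0.35 on the log2 scale, against 0.01 over all genes. Below, it is said for single genes whether the lines overlapped. The share of all genes whose lines did not overlap is not given here, so a lack of overlap does not set a gene apart.

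Among the complex I genes, MT-ND6 differed most. It was at 283, 365 and 249 CPM in LNCaP and at 530, 557 and 440 CPM in 22Rv1. The lines did not overlap, and the log2 fold change was 0.79 (SE 0.15, adjusted p = 0.00251 in edgeR). Strandedness of the libraries is not given in the sources used here, and without strand the reads of MT-ND6 and of RNA from the opposite strand cannot be told apart. MT-ND2 was at 2217, 2606 and 2100 CPM against 3572, 3564 and 2931 CPM, also without overlap, a log2 fold change of 0.56 (SE 0.11, adjusted p = 0.00321 in edgeR). MT-ND4L (0.54), MT-ND3 (0.42), MT-ND4 (0.37) and MT-ND5 (0.35) were called higher in 22Rv1 as well, where MT-ND5 overlapped between the lines. The call of MT-ND5 was lost in limma, without the filter on low counts, and on leaving out LNCaP NC-mimic replicate 1 or 3 or 22Rv1 NC-mimic replicate 1 or 2. That of MT-ND4 was lost without LNCaP NC-mimic replicate 1 or 3, and that of MT-ND4L without LNCaP NC-mimic replicate 1. The remaining complex I gene, MT-ND1, had a log2 fold change of -0.06 (SE 0.16).

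In complex IV the subunits parted. MT-CO2 was at 3157, 3800 and 2990 CPM in LNCaP and at 5518, 5590 and 4501 CPM in 22Rv1, with no overlap and a log2 fold change of 0.67 (SE 0.12, adjusted p = 0.00172 in edgeR). MT-CO3 was at 5131, 5742 and 4551 CPM in LNCaP and at 5302, 5090 and 4465 CPM in 22Rv1, with a log2 fold change of -0.03 (SE 0.11). MT-CO1 had 0.18 (SE 0.14), and neither it nor MT-CO3 was called. MT-CYB, of complex III, had 0.29 (SE 0.12, adjusted p = 0.0695 in edgeR), and the ATP synthase genes MT-ATP6 and MT-ATP8 had 0.01 (SE 0.12) and -0.06 (SE 0.30). As a share of the mitochondrial mRNA counts, MT-CO2 took 8.53% to 8.80% in the LNCaP NC-mimic libraries and 11.3% to 11.7% in those of 22Rv1, whereas MT-CO3 took 13.2% to 13.9% and 10.7% to 11.2%.

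MT-RNR2 was at 8647, 10258 and 7425 CPM in LNCaP and at 4978, 5338 and 4490 CPM in 22Rv1. The lines did not overlap, and 22Rv1 was 1.75-fold lower (log2 fold change -0.81, SE 0.12, adjusted p = 0.000731 in edgeR). MT-RNR1 was at 1274, 1383 and 1148 CPM in LNCaP and at 837, 1003 and 934 CPM in 22Rv1, again without overlap, with a log2 fold change of -0.44 (SE 0.10, adjusted p = 0.00689 in edgeR).

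The piR-4447944 mimic libraries give a comparison of the lines with other libraries. There, 2 of 15 members (13.3%) were called by edgeR's quasi-likelihood test after Benjamini-Hochberg adjustment, against 52.4% of 17283 genes. MT-RNR2 was at 9168, 8513 and 8241 CPM in LNCaP and at 5221, 4866 and 4371 CPM in 22Rv1, a log2 fold change of -0.81 (SE 0.11, adjusted p = 0.000926 in edgeR). MT-ND6 was at 305, 273 and 291 CPM against 458, 495 and 388 CPM, a log2 fold change of 0.66 (SE 0.11, adjusted p = 0.00256 in edgeR). Neither gene overlapped between the lines, in these or in the NC-mimic libraries, but the share of all genes for which this was so is not given here. Without 22Rv1 piR-4447944 mimic replicate 3, 9 of 15 members (60%) were called, against 69.5% of 17988 genes. Both shares were thus higher than with that library (13.3% and 52.4%), and that of the members rose more. MT-RNR2 was then at -0.77 and MT-ND6 at 0.73, with MT-CO2 (0.57), MT-ND2 (0.44), MT-ND5 (0.38), MT-CO1 (0.27), MT-ND4 (0.21) and MT-CYB (0.20) also higher and MT-RNR1 (-0.30) also lower in 22Rv1. MT-ND3 (-0.07) and MT-ND4L (-0.08), called higher in 22Rv1 in the NC-mimic libraries, were not among them.

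**Figure D4:**
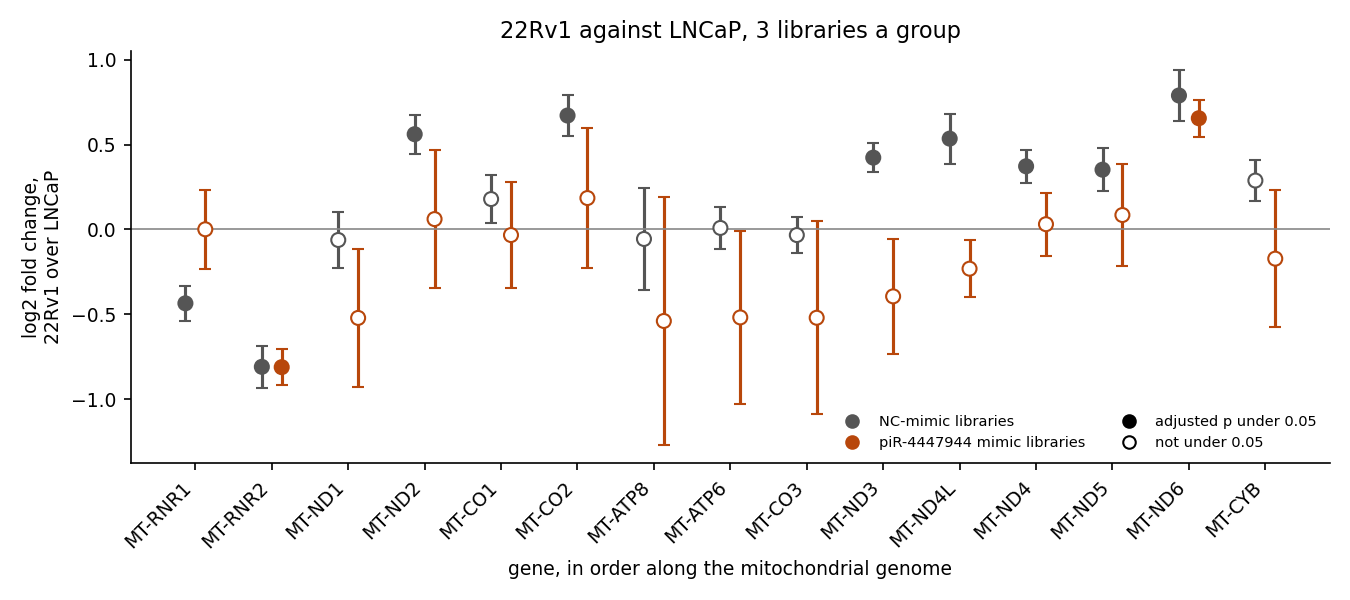
Log2 fold change of 22Rv1 over LNCaP for the 15 mitochondrial genes in order along the genome, in the NC-mimic libraries (grey) and in the piR-4447944 mimic libraries (orange), 3 libraries a group. Error bars are standard errors, and filled points have an adjusted p under 0.05. MT-RNR2 (-0.81 in both) and MT-ND6 (0.79 and 0.66) are filled in both comparisons, and the error bars of most other genes are wider in the piR-4447944 mimic libraries.

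Reads of mitochondrial RNA can also be assigned to copies of mitochondrial genes in the nuclear genome. The tables hold 415 such features. Of these, 297 were listed at 0 in all libraries and 10 had a mean of at least 10 counts. MTATP6P1 (chr1:633696-634376, plus strand, 98.5% identical to MT-ATP6) had the most, at 21.1 to 25.4 counts per 100 counts of MT-ATP6 in all 12 libraries. That held in 22Rv1 piR-4447944 mimic replicate 3 also, with 1240 counts against 5411 for MT-ATP6, or 22.9 per 100. The split of reads between copies this similar is uncertain, and the counts of MT-ATP6 above would be larger by this share if all of these reads were mitochondrial.

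MTND4P12 (chr5:134926660-134928036, minus strand, 95.8% identical to MT-ND4) separated the lines. It had 25, 21 and 15 counts in LNCaP with NC-mimic and 14, 16 and 24 with piR-4447944 mimic. In 22Rv1 it had 8523, 5157 and 4122 counts with NC-mimic and 3700, 5199 and 3487 with piR-4447944 mimic. The lines were far apart, with a log2 fold change of 8.30 in the NC-mimic libraries (SE 0.16, adjusted p = 1.34e-07 in edgeR's quasi-likelihood test after Benjamini-Hochberg adjustment). Per 100 counts of MT-ND4 it had 0.0216 to 0.0340 counts in LNCaP and 5.48 to 7.51 in 22Rv1. In 22Rv1 piR-4447944 mimic replicate 3 it had 3487 counts, while MT-ND4 had 46437. MTND4P20 (chr10:94940253-94941121, minus strand, 71.3% identical to MT-ND4) went the other way, with 90 to 147 counts in LNCaP and 0 to 3 in 22Rv1. MTND2P28 on chromosome 1 (98.4% identical to MT-ND2) had a log2 fold change of 2.63 (SE 0.19) in the NC-mimic libraries.

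Nuclear genes for mitochondrial transcription and DNA maintenance, RNA processing, methionine tRNA use, biogenesis and mass were compared by lists. In the comparisons of mimic with control, 0 members of the 5 lists (73 genes) were called in either line by edgeR, as were 0.0% of all genes, and 0 by DESeq2 or limma. At an unadjusted p under 0.05 there was 1 of 72 genes tested in LNCaP and 1 of 71 in 22Rv1, against 2.67% and 1.48% of all genes, so neither count was above the background. These were FASTKD2, an RNA-binding protein needed for 16S rRNA (-0.21, SE 0.10, unadjusted p = 0.0496 in edgeR), and TWNK, the helicase of mitochondrial DNA replication (-0.49, SE 0.18, unadjusted p = 0.0299 in edgeR, and -0.39 with an unadjusted p = 0.0576 without mimic replicate 3). The list medians in 22Rv1 were -0.12 for transcription and DNA maintenance (18 genes), -0.22 for RNA processing and stability (28 genes), -0.13 for methionine tRNA use (6 genes), -0.07 for regulators of mitochondrial biogenesis (8 of 10 genes tested) and -0.16 for mitochondrial mass proteins (12 genes), against -0.01 over all genes. Without mimic replicate 3 they were -0.08, -0.09, 0.10, -0.07 (9 genes tested) and -0.08 in the same order, against -0.01 over all genes. In LNCaP they lay between -0.03 and 0.02.

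Between the lines, with NC-mimic, 9 of 18 genes for transcription and DNA maintenance were called (50.0%, 7 higher and 2 lower in 22Rv1), against 58.4% of all genes. TFAM, which packages mitochondrial DNA and starts its transcription, was at 121, 125 and 107 CPM in LNCaP and at 60.1, 53.5 and 53.2 CPM in 22Rv1. The lines did not overlap, and the log2 fold change was -1.06 (SE 0.10, adjusted p = 6.79e-05 in edgeR). In the piR-4447944 mimic libraries TFAM was at 120, 115 and 122 CPM in LNCaP and at 62.4, 57.3 and 30.2 CPM in 22Rv1, the last in replicate 3, a log2 fold change of -1.22 with that library and -0.98 without it. POLG, the mitochondrial DNA polymerase, was higher in 22Rv1 (0.50, SE 0.09), as were TWNK (0.74, SE 0.17) and MTERF4, which acts with an rRNA methyltransferase in ribosome assembly (0.80, SE 0.10).

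Of the 28 genes for RNA processing and stability, 7 were called higher and 9 lower in 22Rv1 (57.1%), against 58.4% of all genes. GRSF1, a protein of mitochondrial RNA granules, was lower (-0.65, SE 0.08, adjusted p = 0.000312 in edgeR), and PTCD1, a pentatricopeptide repeat protein of mitochondrial RNA metabolism, was higher (1.47, SE 0.10, adjusted p = 9.36e-06 in edgeR). Of the 6 genes for methionine tRNA use, 3 were called (50.0%), again not above the 58.4% of all genes. TRNT1, which adds the CCA end to tRNAs, was 2.0-fold lower (adjusted p = 0.00012 in edgeR), and lower as well was MTFMT, which formylates the initiator methionine (-0.57, SE 0.14), and PNPT1, a mitochondrial exoribonuclease, was higher (0.53, SE 0.11). Of 8 regulators of mitochondrial biogenesis tested, 6 were higher and 1 lower (87.5%, against 58.4% of all genes), including the transcription factors NRF1 (0.58, SE 0.14) and GABPA (0.78, SE 0.13). Of the 12 mitochondrial mass proteins, 7 were higher and 2 lower (75.0%, against 58.4% of all genes), with CS, citrate synthase, higher (0.69, SE 0.10) and VDAC1, the outer membrane channel, lower (-0.93, SE 0.10). In the piR-4447944 mimic libraries, 5 of 9 biogenesis regulators (55.6%) and 6 of 12 mass proteins (50.0%) were called, against 52.4% of all genes. Without 22Rv1 piR-4447944 mimic replicate 3, 8 of 9 and 9 of 12 were called, against 69.5% of all genes.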

How the data were processed

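The labels name total RNA of LNCaP and 22Rv1 cells in 4 groups of 3 libraries. Reads had been aligned to hg38 by the authors (STAR 2.7.1a) and assigned to genes with RSEM 1.3.0. They deposited the expected count, TPM and effective length of every gene, library by library, and a joint table with the same TPM. Read trimming, strandedness, read length and annotation version are not given in the sources used here. The submitters' notes also name R 4.1.1 and DESeq2 1.34.0.

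After rounding, expected counts were tested in edgeR 4.0.16 (TMM, filterByExpr, quasi-likelihood test, Benjamini-Hochberg over all genes tested, call at adjusted p under 0.05). Each comparison was fitted on its own libraries, and the interaction and the mean effect on all 12. Groups were taken from the labels. Depth was 12161091 to 22179601 expected counts per library. Alternatives were DESeq2 1.42.0, limma 3.58.1 on log2(TPM + 1), other scalings and filters, a replicate block, leaving out each library and, added after seeing the data, an effective length offset. The tests were tested on simulated data first. All MT- features were accounted for, with mRNAs, rRNAs and MT-TM named. In each list, the genes named were taken from those with the smallest p. Sequences and coordinates were read from the hg38 reference, whose 37 MT- genes have the IDs and lengths of the tables. The members and lists were chosen with earlier results of these data known.

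Same-numbered 22Rv1 libraries deviated together (correlations of deviations from group means 0.283, 0.227 and 0.431), whereas those of LNCaP did not in every pair (0.0458, 0.0277 and 0.252). In 22Rv1, replicates 1 and 2 also correlated across numbers (0.271 and 0.145), and mimic replicate 2 correlated best with control replicate 1. The values thus set replicate 3 apart from replicates 1 and 2, and no label says that the numbers pair the libraries.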

Additional observations from a re-analysis of the deposited data

Results flagged for a closer look

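MT-ND3 passed the test in neither line (adjusted p = 0.999 in both), but its groups did not overlap in either and lay in opposite order. Every LNCaP library with piR-4447944 mimic was above every LNCaP control, and every 22Rv1 library with piR-4447944 mimic was below every 22Rv1 control. This was so for 3.48% of all genes in LNCaP and 4.81% in 22Rv1, each in its own direction. The share of all genes with both is not given here. MT-ND3 was flagged for this opposite order, and the interaction was fitted on the same libraries, so its p-value is no separate support. The difference of the effects was -0.83 on the log2 scale (22Rv1 minus LNCaP, SE 0.37), and edgeR gave an unadjusted p = 0.0449 and an adjusted p = 1.0 for this interaction, so it did not pass the test. Without 22Rv1 piR-4447944 mimic replicate 3 it was -0.51. With the effective length as an offset, which was chosen after seeing the data, the difference was -0.70 and the LNCaP change was 0.08. The part of fragment length in these values was not tested.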

How the results depend on the processing

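In LNCaP mimic against control, 1 of 15 members (6.67%) was called without the filter on low counts, against 46 of 29073 genes (0.158%). It was MT-ND4L (adjusted p = 0.00371 in edgeR), with 25 genes higher and 21 lower in all, against 0 and 0 in the main fit. Under the other settings 0 members were called. In the other 3 comparisons involving the mimic, 0 members were called under every setting. Between the lines, leaving out libraries gave 6 to 11 members with NC-mimic, from 6 (40%, against 46.9% of all genes) without LNCaP NC-mimic replicate 1 to 11 (73.3%, against 66.2%) without 22Rv1 NC-mimic replicate 3. With piR-4447944 mimic it gave 2 to 10, the latter 9 (60%, against 69.5%) without 22Rv1 piR-4447944 mimic replicate 3 and 10 (66.7%, against 67.6%) without replicate 3 in every group. As TPM, the mRNAs took 8.74%, 8.42%, 10.7% and 7.75% and the rRNAs 1.12%, 1.12%, 0.652% and 0.739% (LNCaP control and mimic, 22Rv1 control and mimic). The replicate block gave 0 calls of members in all 4 mimic comparisons and a 22Rv1 mRNA median of -0.70. Between the lines it gave 10 members with NC-mimic (66.7%, against 55.5% of all genes) and 2 with piR-4447944 mimic (13.3%, against 47.9%). It changed the unadjusted count over all genes in 22Rv1 from 250 to 420, and in LNCaP from 433 to 615. In the fit of all 12 libraries those counts were 1235 and 169, with 532 and 1000 without the filter, 394 and 604 with the length offset, 459 and 612 in limma, 438 and 351 in DESeq2, and 843 and 1124 without replicate 3 in every group. Sign changes, on the log2 scale, were as follows. In LNCaP mimic against control, MT-RNR2 was 0.001 by library totals and 0.002 with the block, and MT-ATP8 was -0.027 in limma and -0.017 with the length offset. In 22Rv1, MT-RNR2 was 0.035 in limma. Between lines with NC-mimic, MT-ATP8 was 0.328 in limma and 0.417 with the offset, and MT-ATP6 was -0.03 without the filter and -0.04 in limma. Between lines with piR-4447944 mimic, MT-RNR1 was -0.002 with DESeq2 size factors, -0.036 without the filter, -0.016 in DESeq2, -0.054 in limma and -0.05 with the block, MT-ND2 was -0.132 in limma and -0.113 with the block, MT-CO1 was 0.009 with the offset, MT-CO2 and MT-ND4 were -0.007 and -0.006 in limma, and MT-ND5 was -0.023 in limma and -0.008 with the block. Leaving out libraries gave, in LNCaP mimic against control, MT-RNR1 -0.015 to 0.122, MT-RNR2 -0.104 to 0.116, MT-ND1 -0.174 to 0.05, MT-ND2 -0.134 to 0.012, MT-CO2 -0.152 to 0.012, MT-ATP8 -0.079 to 0.404, MT-CO3 -0.107 to 0.047, MT-ND5 -0.112 to 0.02, MT-ND6 -0.135 to 0.134 and MT-CYB -0.083 to 0.028. In 22Rv1 it gave MT-RNR2 -0.09 to 0.031 and MT-ATP8 -0.832 to 0.171 (0.148 without mimic replicate 3). Between lines with NC-mimic it gave MT-ND1 -0.188 to 0.083, MT-ATP8 -0.23 to 0.214, MT-ATP6 -0.107 to 0.141 and MT-CO3 -0.127 to 0.036, and with piR-4447944 mimic MT-RNR1 -0.339 to 0.192, MT-ND2 -0.203 to 0.439, MT-CO1 -0.259 to 0.272, MT-CO2 -0.066 to 0.567, MT-ATP8 -0.986 to 0.035, MT-ND4 -0.106 to 0.223, MT-ND5 -0.143 to 0.383 and MT-CYB -0.431 to 0.221. Without LNCaP NC-mimic replicate 3, MT-ATP8 was -0.223 and MT-ATP6 -0.08 with NC-mimic. Without 22Rv1 piR-4447944 mimic replicate 3, MT-RNR1 was -0.301, MT-ND4 0.212 and MT-CYB 0.203 between the lines with piR-4447944 mimic, and without replicate 3 in every group MT-CO1 was 0.253. The cause of these changes was not tested. A minimum of 10 counts in every library drops MT-ATP8 where the library with 8 counts enters. The low counts of MT-ATP8 limit every value of it.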

Other observations

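In CPM, most mitochondrial mRNAs deviated in the same direction within each LNCaP control library. Against the mean of the LNCaP NC-mimic libraries, replicate 2 was above in 12 of 13 mRNAs (median 0.20 on the log2 scale). Replicate 1 was below in 13 of 13 (median -0.05) and replicate 3 in 12 of 13 (median -0.16). The mean is that of the same libraries, so a high library puts the others below it, and these counts are not separate observations. In 22Rv1, NC-mimic replicate 3 had a median of -0.20 with 8 of 13 below. Nuclear copies of mitochondrial genes took 1.07 to 1.18 counts per 100 counts of the mitochondrial genes in LNCaP and 1.68 to 2.07 in 22Rv1. In 22Rv1 piR-4447944 mimic replicate 3 this value was 1.70, within the 1.68 to 1.71 of its group.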
